A study of Mus musculus with 6 samples.

Results

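The 10 genes Ddit4, Zbtb16, Pik3ip1, Tsc22d3, Fkbp5, Sgk1, Per1, Klf9, Sult1a1 and Plet1, most of them known targets of stress hormones, were followed in single immune cells from brains that carried a human glioma. They were taken by symbol from the 31053 genes of the matrix. They were chosen because their levels differed between cells with few and cells with many captured RNA molecules, so that contrast is given as a description with no test. The question was whether targets of the glucocorticoid receptor stood together at a higher level in microglial cells with little RNA.

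Cells came from female SCID mice, an immunodeficient strain without T and B cells, which the labels give as 6 to 8 weeks old and the methods as 8 weeks old at implantation. Mice received 50000 cells of the human glioma line U87 in the brain, carrying either an IL-33 expression construct or the empty vector pcDNA 3.1. Tissue was taken at 3 weeks from 3 mice with IL-33 tumors and at 6 weeks from 3 mice with pcDNA tumors. CD45+ cells of the tumor hemisphere were sorted and profiled by 10x Chromium 3′ sequencing, which tags each captured RNA molecule with a unique molecular identifier (UMI).

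The 6 libraries were deposited as 1 matrix, in which a suffix of 1 to 6 on each cell barcode marks the library. No label ties a suffix to a mouse, so the 2 tumor groups were not compared and the matrix was treated as 1 pooled sample. It held 40411 barcodes, of which 38751 passed the filters on genes and mitochondrial UMIs. Suffixes held between 2879 and 10217 barcodes, with medians of 1536 to 3503 UMIs per barcode. A barcode was called microglial where over 3% of its UMIs came from Cst3, C1qa, C1qb, C1qc, P2ry12 and Tmem119, and 37629 barcodes (97.1%) were. Of these, 8820 had under 1000 UMIs (low-RNA), 7194 had 1000 to below 2000, and 21615 had 2000 or more (high-RNA).

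Many low-RNA barcodes were not separate observations. The same barcode sequence often occurred under several suffixes, and this was the case for 86.2% (exact binomial 95% interval 85.5–87.0) of low-RNA microglial barcodes when 3 or more suffixes were required. The share was 63.8% from 1000 to below 2000 UMIs and 3.78% in high-RNA barcodes. Over the whole matrix 25689 sequences occurred under 1 suffix, 661 under 2 and 3229 under 3 or more, the latter making up 13400 barcodes.

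The sequences found under all 6 suffixes divided their UMIs over the suffixes in nearly the same proportions. They had a median of 8952 UMIs summed over suffixes, and the split was not measured for the other recurring sequences. Among the 490 sequences found under all 6 suffixes, the median share of a sequence's UMIs was 19.2, 25.4, 7.36, 14.3, 20.98 and 12.8% in suffixes 1 to 6. For each suffix, 97.1 to 99.0% of these sequences lay within 2 percentage points of that median. The 6 libraries held 18.5, 23.1, 9.23, 16.9, 13.9 and 18.4% of all UMIs, so the split did not simply follow library size. Summed over suffixes, a sequence found under 3 or more had a median of 3640 UMIs (interquartile range 2556 to 5321), and microglial barcodes found under 1 suffix had a median of 3122. Apoe, a lipoprotein gene, varied among these sequences alike in every pair of suffixes (r of 0.946 to 0.982 over 15 pairs, which share the barcode sequences). Genes of the set had a lower r between suffixes where this was measured. They held few UMIs per barcode (Ddit4 0.429 per low-RNA barcode), so counting error lowers r. The values therefore do not show that these genes were less alike. Their r was 0.317 to 0.567 for Ddit4 and 0.158 to 0.521 for Tsc22d3. For Plet1 it was 0.366 to 0.521 and for Pik3ip1 0.161 to 0.399. Where Ddit4 was found under 1 suffix of a pair, it was found under the other in 41.1 to 81.6% of sequences. Where it was not, the share was 7.63 to 31.4%. The matrix does not show whether a molecule was counted under more than 1 suffix, and why sequences recur was not tested. Suffixes are therefore not independent observations of the recurring sequences, and the intervals cover counting error only. Values without these sequences are given beside the results.

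**Figure D1:**
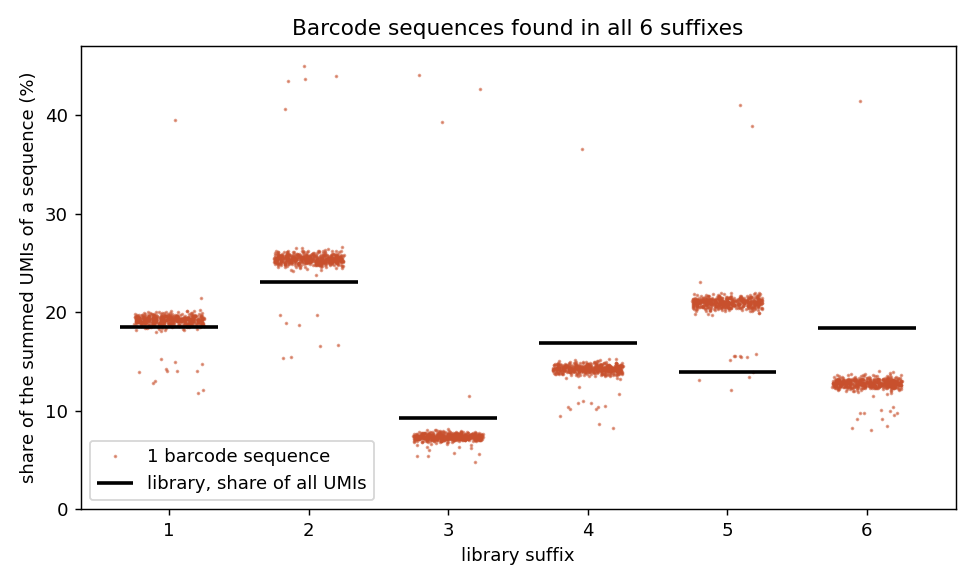
Share of a barcode sequence's UMIs (%) that fell in each suffix, for the 490 sequences found under all 6 suffixes, beside the share of all UMIs held by each library. The sequences lie close to their medians of 19.2, 25.4, 7.36, 14.3, 20.98 and 12.8%.

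Glucocorticoids such as corticosterone bind the glucocorticoid receptor Nr3c1, which leaves its chaperone complex, enters the nucleus and binds response elements made of inverted repeats. Its targets include feedback regulators of the receptor itself, repressors of inflammatory transcription, and brakes on growth signaling. Microglia express the receptor, and stress hormones are known to dampen their inflammatory responses.

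Levels are a gene's UMIs per 1000000 UMIs (CPM), summed over the barcodes of a class, and they compare a gene between classes and not one gene with another. A gene was called higher where its ratio was 1.5 or more and its level was higher in each of the 6 suffixes. Of 8945 genes with a mean of at least 5 CPM over the low- and high-RNA classes, 8.36% were called higher in low-RNA barcodes, and so were 8 of the 10 genes; since the genes were chosen on this contrast, nothing is read from that count. All 10 passed the filter, but Zbtb16 and Plet1 were below 5 CPM in the high-RNA class and passed only through their low-RNA level. The median ratio was 11.1 for the 10 genes and 1.09 for all genes tested. The share of all genes whose suffix ranges did not overlap was not computed in any comparison, so separate ranges only describe single genes.

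Fkbp5 is a co-chaperone that lowers hormone binding of the receptor, and is itself induced by it (GRCm38 chr17:28399094-28517527, minus strand). Its level in low-RNA barcodes was 154, 187 and 214 CPM (lowest, median and highest suffix), and 21.3, 28.6 and 33.6 CPM in high-RNA barcodes. The suffixes did not overlap, and the pooled ratio was 6.94 (exact 95% interval 6.47–7.44). Tsc22d3, known as GILZ, encodes a leucine zipper protein that holds back AP-1 and NF-κB (chrX:140539528-140600659, minus strand). It had 664, 895 and 1110 CPM in low-RNA and 138, 204 and 254 CPM in high-RNA barcodes, again without overlap, with a ratio of 4.79 (4.65–4.94).

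Zbtb16, the zinc finger repressor PLZF, lies at chr9:48654297-48836222 on the minus strand. It had 67.4, 89.7 and 96.7 CPM in low-RNA and 0.491, 1.42 and 4.44 CPM in high-RNA barcodes, the second highest ratio of all genes tested at 39.7 (33.5–47.4). Klf9, a Krüppel-like factor and direct target of the receptor (chr19:23141226-23168134, plus strand), had 80.8, 106 and 132 CPM against 6.40, 8.99 and 11.9 CPM. For both transcription factors every low-RNA suffix was above every high-RNA suffix, and the ratio of Klf9 was 12.7 (11.4–14.1).

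Ddit4, known as REDD1, is a brake on the growth kinase complex mTORC1 (chr10:59949669-59951834, minus strand). It had 390, 538 and 666 CPM in low-RNA barcodes and 3.81, 11.2 and 28.6 CPM in high-RNA barcodes, a pooled ratio of 36.3 (34.0–38.8) with no overlap. Pik3ip1, an inhibitor of PI3-kinase that acts upstream in the same route (chr11:3330401-3342971, plus strand), had 176, 304 and 371 CPM against 13.2, 17.7 and 27.7 CPM, a ratio of 15.9 (14.8–17.0). The same pattern of separate ranges thus held for both brakes on this route.

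Sgk1, the serum- and glucocorticoid-regulated kinase (chr10:21882184-21999903, plus strand), did not follow the others. Its pooled level was 2724 CPM in low-RNA and 2502 CPM in high-RNA barcodes, a ratio of 1.09, and it was higher in the low-RNA class in 3 of 6 suffixes, with overlapping ranges. Per1, a repressor of the circadian clock that also carries a glucocorticoid response (chr11:69095217-69109960, plus strand), had 66.9 against 42.4 CPM, a ratio of 1.58. It was higher in 5 of 6 suffixes, its ranges overlapped, and it was not called because its ratio was 0.996 in suffix 3.

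The remaining genes are an enzyme and a surface protein. Sult1a1, a cytosolic sulfotransferase (chr7:126672865-126676432, minus strand), had 267, 372 and 414 CPM against 27.4, 43.8 and 52.6 CPM, a ratio of 9.44 (8.96–9.96) without overlap. Plet1, a surface protein first described in placenta (chr9:50494525-50505482, plus strand), had 92.2, 128 and 167 CPM against 0.368, 1.92 and 7.60 CPM, a ratio of 33.6 (29.2–38.8) without overlap. Plet1 overlaps the antisense gene Plet1os, which had the highest ratio of all genes tested, 45.4 (46.7 against 1.03 CPM), and the fifth highest belonged to E230001N04Rik at 27.2 (58.4 against 2.15 CPM). Fkbp5, Klf9, Pik3ip1 and Sult1a1 also overlap other annotated genes.

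A higher CPM in barcodes with few UMIs need not be more molecules. Per barcode, Ddit4 had 0.429 UMIs in the low-RNA and 0.0556 UMIs in the high-RNA class, so it was higher on this scale too. Tsc22d3 had 0.711 and 0.699 UMIs per barcode, nearly the same, and Sgk1 had 2.03 and 8.79. In all, 6 of the 10 genes had more UMIs per barcode in each of the 6 suffixes, against 0.212% of all genes tested. Zbtb16 and Plet1 are among the 6 and passed the filter only through their low-RNA level. Since the 10 genes were chosen on levels in these same classes, nothing is read from that count. Among sequences under 1 suffix, Ddit4 had 0.0797 UMIs per low-RNA and 0.0188 UMIs per high-RNA barcode, and Tsc22d3 had 0.254 and 0.664 UMIs.

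Over 7 UMI bins, the level of Ddit4 fell from 672 CPM at 500 to below 750 UMIs through 503, 287, 169, 31.5 and 11.2 to 8.71 CPM at 4000 UMIs or more. Sequences found under 3 or more suffixes held 700, 557, 383, 382, 385, 341 and 244 CPM over the same bins. Sequences found under 1 suffix held 241, 23.3, 9.37, 10.5, 5.40, 5.50 and 5.08 CPM. Within the recurring sequences the fall was far smaller than over all barcodes. In sequences under 1 suffix it lay mostly between the first 2 bins, and the first value rested on 50 UMIs. Of the 58 Ddit4 UMIs under 1 suffix below 1000 UMIs, 57 lay in suffix 2. The 2 kinds differed in every bin. Plet1 had 136, 130, 133, 128, 132, 89.0 and 59.8 CPM in the recurring sequences, and from 750 UMIs upward at most 2.92 CPM in sequences under 1 suffix.

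**Figure D2:**
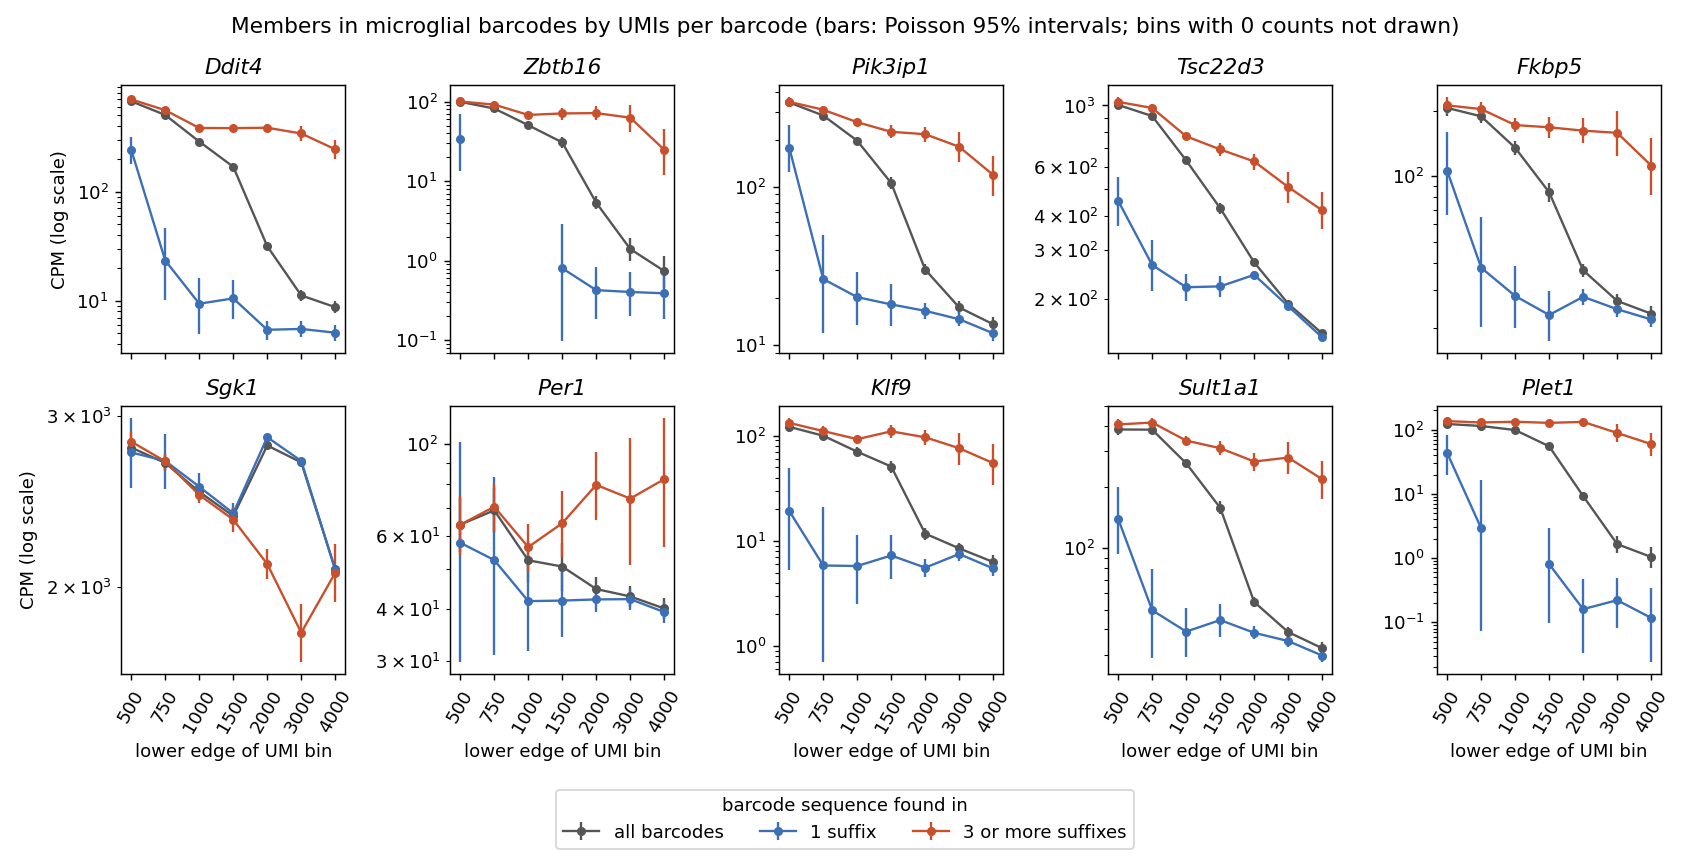
CPM (log axis) of each of the 10 genes in microglial barcodes against UMIs per barcode (lower edge of the bin), for all barcodes and for sequences found under 1 or under 3 or more suffixes, with exact Poisson 95% intervals. Ddit4 lies between 244 and 700 CPM in the recurring sequences and between 5.08 and 241 CPM in sequences under 1 suffix.

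Within a common range of depth the 2 kinds of sequence could be compared in each suffix. From 1000 to below 2000 UMIs, 4591 barcodes had sequences under 3 or more suffixes and 2505 under 1 suffix. Their medians were 1255 and 1561 UMIs, so depth was restricted but not matched. Of 8966 genes tested, 6.01% were called higher in the recurring sequences and 8.89% lower. The same 8 of the 10 genes were called higher, and the median ratio was 10.4 for the 10 genes against 0.968 for all genes. These genes were chosen on a contrast whose low-RNA class consists mostly of recurring sequences, so this count is not independent of the choice. Zbtb16 and Plet1 passed the filter only through their level in recurring sequences, here and at 2000 UMIs or more.

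Among the receptor's feedback and repressor genes, Fkbp5 had 151, 175 and 228 CPM (lowest, median and highest suffix) in recurring sequences and 17.4, 30.0 and 36.2 CPM in sequences under 1 suffix, a ratio of 6.87 (5.57–8.56). Tsc22d3 had 552, 687 and 819 CPM against 155, 232 and 314 CPM, a ratio of 3.38 (3.14–3.64). The ranges of both genes were well apart. Klf9 had 90.6, 100.1 and 109 CPM against 5.14, 6.20 and 8.70 CPM, a ratio of 14.6 (9.86–22.5). Zbtb16 was nearly absent from sequences under 1 suffix, with 2 UMIs in all (0.517 CPM) against 69.1 CPM, a ratio of 134 with a counting interval of 36.8 to 1107.

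Ddit4 had 358, 372 and 417 CPM in the recurring sequences and 0, 11.7 and 13.3 CPM in those under 1 suffix, a ratio of 37.9 (27.6–53.4). Pik3ip1 had 224, 250 and 266 CPM against 12.0, 23.6 and 30.9 CPM, a ratio of 13.1 (10.3–16.8). Both brakes on growth signaling were separated in every suffix. Sult1a1 had 264, 331 and 352 CPM against 29.6, 39.7 and 54.1 CPM, a ratio of 7.79 (6.64–9.20). Plet1 had 131 CPM against 0.517 CPM, which was again 2 UMIs, a ratio of 254 with a counting interval of 70.1 to 2100. Sgk1 had 2441 and 2436 CPM, a ratio of 1.00, and Per1 58.9 and 41.9 CPM, a ratio of 1.41, so neither was called here either. Below 1000 UMIs, 8 of the 10 genes were called higher in the recurring sequences, beside 7.14% of all genes, and at 2000 UMIs or more 5 were, beside 2.45%. In the deeper class some suffixes held as few as 8 barcodes. Zbtb16, Klf9 and Plet1 had pooled ratios of 152, 13.6 and 659 there, but were higher in only 5 of 6 suffixes and so were not called.

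**Figure D3:**
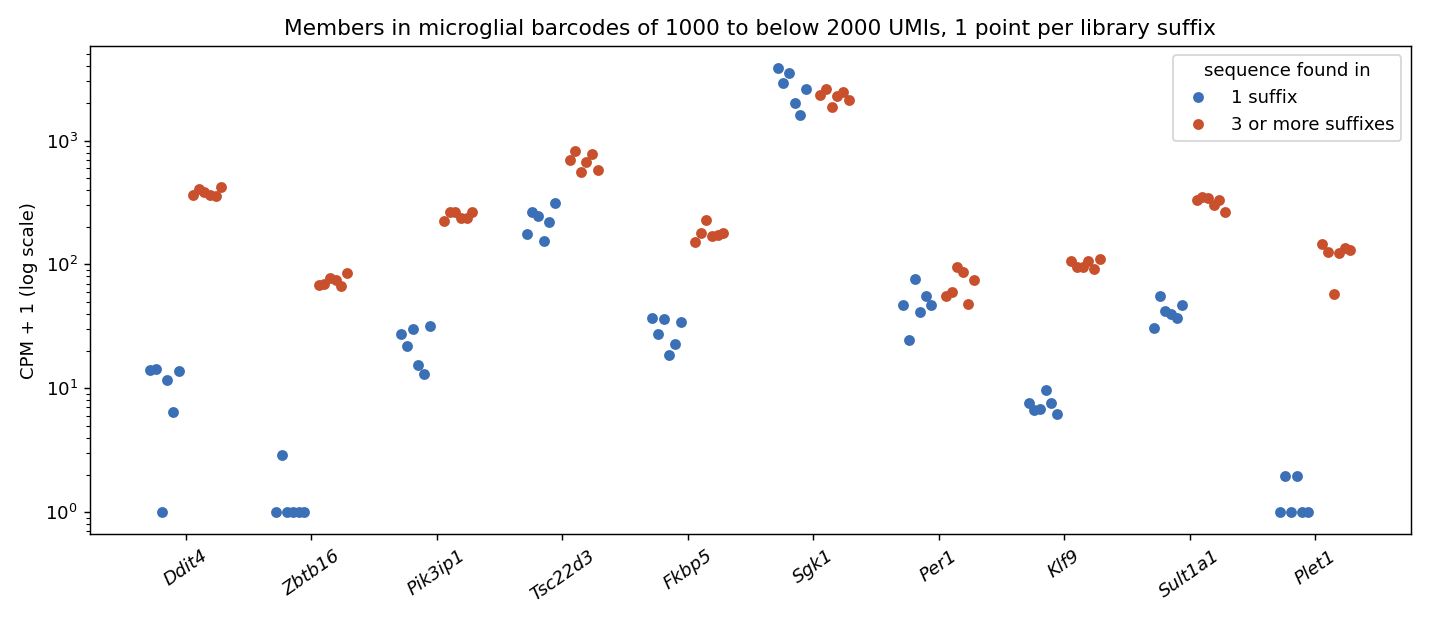
CPM + 1 (log axis) of each of the 10 genes per suffix in microglial barcodes of 1000 to below 2000 UMIs, for sequences found under 1 suffix and under 3 or more. Ddit4 lies between 358 and 417 CPM in recurring sequences and between 0 and 13.3 CPM in sequences under 1 suffix, whereas Sgk1 and Per1 overlap.

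Leaving out only the sequences under 3 or more suffixes gave a Ddit4 ratio of 56.7 and a median ratio of 6.27 for the 10 genes. That set still held 485 low-RNA barcodes with sequences under 2 suffixes. Among sequences under 1 suffix, the low-RNA class shrank to 728 barcodes, set against 20170 high-RNA barcodes. In that comparison none of the 10 genes was called, with 1.69% of all 8980 genes tested called higher. A call needs all 6 suffixes, and the low-RNA class held as few as 33 barcodes in a suffix, so scarce genes could hardly be called. Ddit4 still had 105 against 5.33 CPM, a ratio of 19.8, but 57 of its 58 UMIs lay in suffix 2, where the low-RNA level was 334 CPM. Suffix 2 also held the largest share of UMIs of the sequences found under all 6 suffixes. Whether this bears on the Ddit4 UMIs in that suffix was not tested. In the other 5 suffixes, 483 low-RNA barcodes held 1 UMI of Ddit4 (2.63 CPM) against 5.30 CPM in high-RNA barcodes, a ratio of 0.497 (0.0125–2.79).

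For the other genes, levels in the same 5 suffixes were as follows. Zbtb16 and Plet1 had 0 UMIs, which allows up to 7.90 CPM. Tsc22d3 had 203 against 193 CPM, a ratio of 1.05 (0.830–1.32), Fkbp5 26.3 against 24.1 CPM, a ratio of 1.09, and Pik3ip1 26.3 against 13.9 CPM, a ratio of 1.89 (0.901–3.49). The interval of the ratio held 1 for 9 of the 10 genes, and for Sgk1 it lay above 1, at 1.08 (1.02–1.15). At this depth a change of moderate size was not detectable for the scarcer genes. A larger set, 1000 to below 2000 against 2000 UMIs or more among sequences under 1 suffix, called 0 of the 8 genes that passed the filter (1.30% of all genes), and Ddit4 had 10.1 against 5.33 CPM.

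Within the recurring sequences alone, 5 of the 10 genes were called higher in the 7607 low-RNA than in the 816 high-RNA barcodes, beside 2.72% of all genes. Ddit4 had 617 against 351 CPM (ratio 1.76), Tsc22d3 1001 against 567 CPM (1.77) and Pik3ip1 325 against 192 CPM (1.69). Sult1a1 had 413 against 262 CPM (1.58) and Zbtb16 95.5 against 61.8 CPM (1.55). Within single suffixes the ratio was 1.79 to 8.59 for Ddit4, 1.57 to 1.99 for Tsc22d3, 1.55 to 6.70 for Pik3ip1 and 1.45 to 3.45 for Sult1a1. The pooled ratio of Ddit4 thus lay below that of every suffix. Pooled ratios were far smaller than those over all barcodes, and some suffixes held as few as 8 barcodes in a class. The median ratio of the 10 genes was 1.48, beside 1.05 for all genes.

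Each recurring sequence was also summed over its suffixes and treated as 1 profile, in which a molecule read under several suffixes would be counted each time. The 3156 summed microglial profiles had a median of 3620.5 UMIs, and the 21573 barcodes under 1 suffix with at least 1500 UMIs had a median of 3214. Both were thinned to 1500 UMIs, which left out 1830 shallower barcodes under 1 suffix. Ddit4 was then detected in 39.3% (37.6–41.1) of summed profiles and 0.820% of barcodes under 1 suffix. Before thinning its level was 472 against 5.50 CPM.

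Detection at 1500 UMIs followed the same grouping as the levels. Among feedback and repressor genes, Tsc22d3 was found in 60.8 and 21.3% of profiles, Fkbp5 in 22.1 and 3.71%, Klf9 in 12.7 and 0.927%, and Zbtb16 in 9.98 and 0.0788%. Pik3ip1 was found in 29.8 and 2.20%, Sult1a1 in 35.8 and 5.09%, and Plet1 in 12.5 and 0.0278%. Sgk1, at 82.1 and 80.7%, was close in both kinds. Per1 was found in 7.89% (6.97–8.89) of summed profiles and 5.99% (5.68–6.32) of barcodes under 1 suffix. Before thinning its level was 65.3 against 41.2 CPM. At least 3 of the 8 genes called at 1000 to below 2000 UMIs were detected in 40.1% of summed profiles and in 0.204% of barcodes under 1 suffix. These 8 genes were picked for their level in recurring sequences, so these shares are not independent of the choice.

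**Figure D4:**
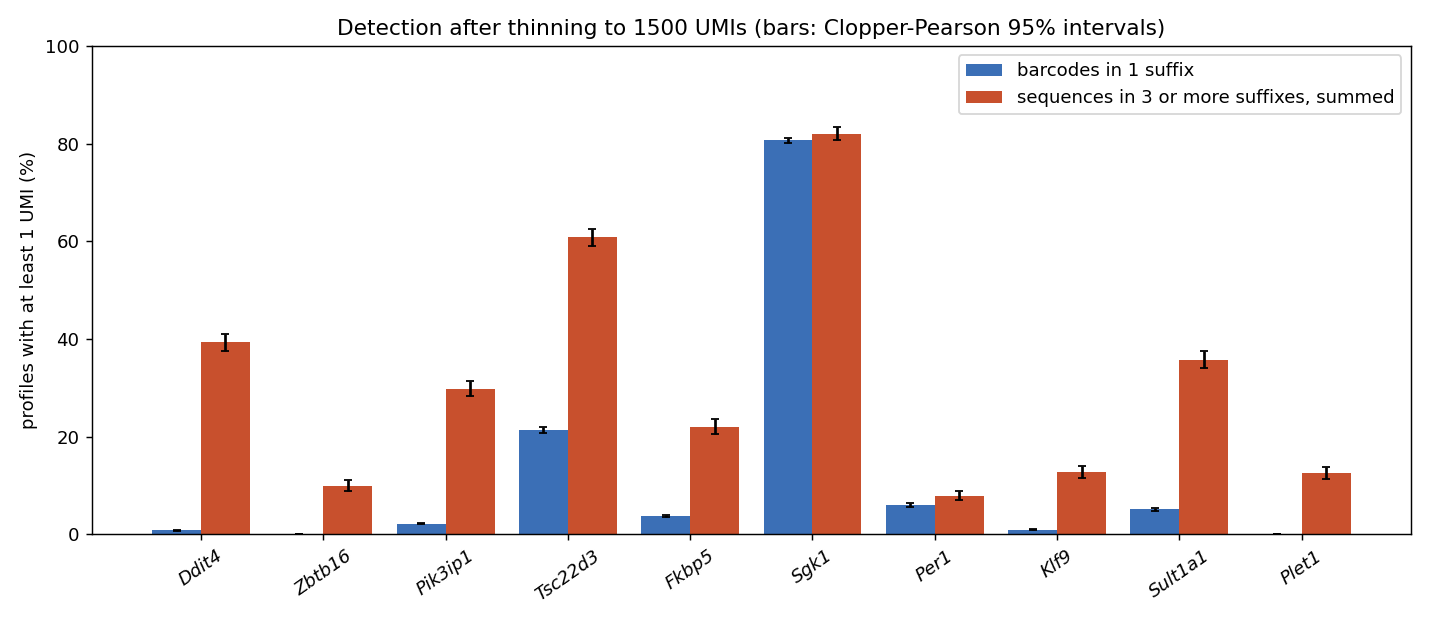
Share (%) of profiles with at least 1 UMI of each gene after thinning to 1500 UMIs, for recurring sequences summed over suffixes and for barcodes found under 1 suffix, with exact binomial 95% intervals. Ddit4 stands at 39.3 and 0.820%, and Sgk1 at 82.1 and 80.7%.

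The difference was present at every total of UMIs. In profiles of 1500 to below 3000 UMIs, Ddit4 had 735 CPM against 6.00 CPM in barcodes under 1 suffix, at 3000 to below 4000 UMIs 505 against 5.50 CPM, and at 6000 UMIs or more 381 against 7.26 CPM. The level was high in all classes of summed profiles and fell with their total. Within the summed profiles the genes showed little tendency to occur in the same profile. Over the 45 pairs, the odds ratio of joint detection had a median of 1.07 and ranged from 0.699 to 1.47, with the highest value for Ddit4 with Tsc22d3. Ddit4 had odds ratios of 1.41 with Pik3ip1, 1.35 with Sult1a1 and 0.933 with Plet1.

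The other known targets of the receptor were mixed. Of 30 listed genes, 21 passed the filter and 4 were called higher in low-RNA barcodes over all suffixes, beside 8.36% of all genes. These were the transcription factors Cebpb (1288 against 522 CPM, ratio 2.47), Klf13 (2.38) and Nfil3 (2.12) and the metallothionein Mt2 (2.56). The arrestin-like gene Arrdc3 (0.585), the GTPase gene Rhob (0.503) and Zfp36, which destabilizes cytokine mRNA (0.658), were called lower, beside 6.74% of all genes, and the median of the list was 1.11. At 1000 to below 2000 UMIs, the same 4 genes were higher in recurring sequences, by ratios of 2.24 for Cebpb, 2.28 for Klf13, 2.46 for Mt2 and 4.49 for Nfil3. Arrdc3, Rhob, Txnip and Zfp36 were lower, and the list's median was 0.885. Of all genes, 6.01% were higher and 8.89% lower in that comparison. Among sequences under 1 suffix, none of 20 targets tested was higher in low-RNA barcodes and 1, Mt2, was lower, beside 1.69 and 2.38% of all genes. With as few as 33 low-RNA barcodes in a suffix, a scarce gene could hardly be higher in all 6. Nothing is read from these last counts.

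The receptor gene Nr3c1 had 78.9 CPM in low-RNA and 69.5 CPM in high-RNA barcodes, and 71.4 against 80.7 CPM in recurring and 1-suffix sequences at 1000 to below 2000 UMIs. It was called in neither comparison. Of 8 measured genes for the receptor and its cofactors, the coactivators Ncoa1 and Ncoa2 were higher in low-RNA barcodes, beside 8.36% of all genes. At 1000 to below 2000 UMIs, Ncoa1 was higher in recurring sequences, beside 6.01% of all genes. With so few genes, nothing is read from these counts.

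Lists of other stress and rhythm programs were mixed. Of all genes, 8.36% were called higher and 6.74% lower in low-RNA barcodes, and the lists are too short to read more from their counts. Of 13 genes of mTORC1, FoxO and integrated stress signaling, Trp53inp1 (16.1 against 4.88 CPM), Foxo3 (ratio 1.59) and Klf4 (2.02) were higher in low-RNA barcodes and Ddit3, a stress transcription factor, was lower (0.598). Of 10 clock genes, the activators Arntl (1.93) and Clock (1.54) were higher, and the output genes Dbp (0.300) and Tef (0.649) and the repressor Per3 (0.282) were lower. Hilpda was the 1 higher gene of 8 hypoxia genes (2.24). Among sequences under 1 suffix none of these genes was called higher in low-RNA barcodes, beside 1.69% of all genes. There 1 stress gene (Atf4), 1 hypoxia gene (Ero1l) and no clock gene were called lower, beside 2.38% of all genes. The low-RNA class there held as few as 33 barcodes in a suffix, so nothing is read from these calls.

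Immediate early genes, which also respond to tissue dissociation, went mostly the other way. Klf6 was higher (2.01) and 6 of 12 were lower, beside 8.36 and 6.74% of all genes. Jun (0.649), Atf3 (0.559) and Ier3 (0.390) were among the lower genes, and the list median was 0.721. Of 7 heat shock genes, Dnajb1 (0.380) and Hspb1 (0.425) were lower. Among sequences under 1 suffix, Ier3 was the 1 immediate early gene called lower (0.501), beside 2.38% of all genes. No heat shock or microglial identity gene was called there in either direction. With as few as 33 low-RNA barcodes in a suffix, scarce genes could hardly be called in that comparison. Over all barcodes, microglial identity genes were also lower in 5 of 9 cases, with a median of 0.611. In recurring against 1-suffix sequences at 1000 to below 2000 UMIs, 5 of 9 were lower, beside 8.89% of all genes, with a median of 0.492. There the purinergic receptor gene P2ry12 had 2018 against 4099 CPM and Tmem119 2286 against 2708 CPM. P2ry12 was called lower and Tmem119 was not, and both are in the gate itself. The part of these levels in the other differences was not tested.

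Across 7 UMI bins and 6 suffixes (42 points, which share libraries and recurring sequences), the genes whose CPM followed Ddit4 most closely among 5398 genes were Pik3ip1 (r = 0.981), Klf9 (0.971), Jaml (0.970), Ms4a6d (0.967) and Sult1a1 (0.966). Per1 and Sgk1 were less alike, at 0.483 and 0.220. Over 40 points from sequences under 1 suffix, the first 5 genes had correlations of 0.509, 0.513, 0.490, 0.657 and 0.599. These 5 had been picked as the highest over all barcodes, so lower values were likely on a second measurement. Ddit4 was also scarce in sequences under 1 suffix, with 8 to 149 UMIs per bin over all suffixes. Plet1, which was below the 20 CPM needed for the ranking, had a correlation of 0.691 there. Nothing is read from the lower values.

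The level of Ddit4 also varied with the mitochondrial share of UMIs, a measure often read as RNA quality. In low-RNA microglial barcodes it was 807 CPM below 1% mitochondrial UMIs, 143 CPM at 3 to below 4% and 65.7 CPM at 4 to below 5%. Among recurring sequences alone it was 851 CPM below 1% and 174 CPM at 3 to below 5%. Among sequences under 1 suffix it was 199 CPM below 1% (40 UMIs), and no UMI was found at 3 to below 5% in 164 barcodes. Of the 58 UMIs of Ddit4 in these low-RNA sequences under 1 suffix, 57 lay in suffix 2, so these values describe mostly that suffix. Its part in the difference between kinds of sequence was not tested.

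Few cells outside the microglial gate were present. Ddit4 had 5 UMIs in 94 NK barcodes (30.6 CPM), 0 in 59 granulocyte and 0 in 52 monocyte barcodes, and 5 in 195 choroid plexus barcodes (11.8 CPM). Choroid plexus sequences under 3 or more suffixes (48 barcodes of only 11 sequences) held 0 UMIs of Ddit4 in 44000, which allows up to 68.2 CPM. That limit lies below the level of the recurring microglial sequences, but it rests on 11 sequences. Outside every gate, Ddit4 had 535 CPM in 170 barcodes of 64 recurring sequences and 26.6 CPM in 532 barcodes under 1 suffix. Other genes of the set differed. Under 1 suffix, Klf9 had 82.8 CPM in monocyte barcodes (17 UMIs) and 56.6 CPM outside every gate (102 UMIs). Tsc22d3 had 270 CPM in NK (42 UMIs) and 24.4 CPM in monocyte barcodes (5 UMIs) under 1 suffix. Zbtb16 and Plet1 had 0 UMIs in these monocyte barcodes.

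Promoter windows were read to show what lies upstream of these genes. RefSeq windows (GRCm38.p6, 250 bases before to 50 after a start) were found for 9 of the 10 genes, 17 windows in all, and not for Zbtb16. The full glucocorticoid response element, searched on both strands as AGAACA, 3 bases of any kind and TGTTCT, occurred in 3 of 32851 windows (0.00913%), 1 of them upstream of Sgk1 at position −189 from the start. A looser form, GNACA, 3 bases of any kind and TGTNC, occurred in 0.475% of windows and among these genes at the same site of Sgk1. The E-box CACGTG, in 7.15% of windows, occurred upstream of Fkbp5 (−169), Per1 (−166) and Sgk1 (−246), and the forkhead motif GTAAACA, in 3.65%, upstream of Klf9 (−100). The element TGACGTCA, in 1.79% of windows, occurred in none of them.

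The 250 bases upstream of 5 starts are shown, with capitals marking these motifs, for the 4 genes that hold one and for Ddit4, which leads the set and holds none. The Sgk1 window lies at chr10:21993640-21993889 and the Per1 window at chr11:69098699-69098948, both on the plus strand. The Fkbp5 window lies at chr17:28486150-28486399 on the minus strand, the Klf9 window at chr19:23140976-23141225 on the plus strand and the Ddit4 window at chr10:59951771-59952020 on the minus strand.
Sgk1: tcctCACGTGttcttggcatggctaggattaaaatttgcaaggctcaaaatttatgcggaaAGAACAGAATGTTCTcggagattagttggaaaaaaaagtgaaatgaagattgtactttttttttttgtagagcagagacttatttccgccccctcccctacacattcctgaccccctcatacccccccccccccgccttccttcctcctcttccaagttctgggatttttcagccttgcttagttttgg
Per1: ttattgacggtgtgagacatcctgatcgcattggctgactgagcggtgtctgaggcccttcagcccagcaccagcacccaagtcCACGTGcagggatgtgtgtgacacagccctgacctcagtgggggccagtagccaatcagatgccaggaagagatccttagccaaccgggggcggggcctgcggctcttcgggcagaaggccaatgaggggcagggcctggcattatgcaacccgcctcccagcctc
Fkbp5: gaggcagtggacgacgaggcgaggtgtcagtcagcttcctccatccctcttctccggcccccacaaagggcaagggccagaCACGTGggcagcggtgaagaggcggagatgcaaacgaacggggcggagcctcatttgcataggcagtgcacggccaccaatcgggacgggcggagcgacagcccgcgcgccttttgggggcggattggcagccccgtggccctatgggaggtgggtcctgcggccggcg
Klf9: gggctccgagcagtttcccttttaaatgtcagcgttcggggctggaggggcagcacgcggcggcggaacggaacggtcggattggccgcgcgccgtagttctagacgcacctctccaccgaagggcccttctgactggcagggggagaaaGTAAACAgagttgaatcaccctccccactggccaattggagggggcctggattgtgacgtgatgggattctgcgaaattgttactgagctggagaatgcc
Ddit4: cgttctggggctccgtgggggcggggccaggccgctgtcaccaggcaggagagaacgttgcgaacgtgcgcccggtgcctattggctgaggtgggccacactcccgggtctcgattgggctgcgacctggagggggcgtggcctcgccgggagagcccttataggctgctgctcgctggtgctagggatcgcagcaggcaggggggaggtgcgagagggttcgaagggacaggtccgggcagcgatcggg
A match in letters is not evidence of binding, and its absence from a window says nothing of the receptor.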

How the data were processed

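The authors prepared 10x Chromium 3′ v2 libraries from sorted CD45+ cells of 6 mice and aligned reads to mm10 with Cell Ranger 3.1 (3.1.0 in the file header), and named Seurat 3.1.5 for their analysis. The deposited matrix holds raw UMI counts of 31053 genes in 40411 barcodes (105560763 UMIs). Unmapped per-sample columns numbered 0. The labels give no mouse for any suffix, and suffixes were not assigned to mice by matching their sizes to those the study lists. The matrix was therefore used as 1 sample, with no p-values.

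The 10 genes, the lists and the thresholds were chosen with earlier results of these data known, and the study's own cluster lists named several of these genes from the same cells. Kept barcodes had more than 200 genes, no more than 2500, and a mitochondrial share below 5%. No doublet caller was run. Counts were summed per class and expressed as CPM with exact Poisson 95% intervals, ratios with exact binomial intervals, shares with Clopper-Pearson intervals. A count of 0 allows up to 3 counts. Genes with a mean of 5 CPM over both classes were tested against the ratio of 1.5. Likeness to Ddit4 was Pearson's r of log2(CPM + 1) among genes of at least 20 CPM. Genes named in the text are the 10, the lists, the 5 most like Ddit4, the 5 with the highest ratio, and Apoe. On simulated data for the low- against high-RNA contrast (8891 genes, 200 changed), 100% of genes raised 4-fold were called and 0.0805% of unchanged genes. The simulation drew independent counts for each suffix, with counting error only and no recurring sequences. These shares therefore do not give the error of calls on the real barcodes. Positions are from GENCODE M21 and promoters from RefSeq. Python 3.11.15, numpy 2.4.6, scipy 1.17.1 and pandas 2.3.3 were used. Alternatives covered gates, cutoffs, scaling, thinning, single suffixes and recurring sequences.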

Additional observations from a re-analysis of the deposited data

How the results depend on the processing

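No paired analysis was possible because no label ties a suffix to a mouse and no test between mice was made. The Ddit4 ratio of low- to high-RNA barcodes, 36.3, became 46.9 with the UMIs of ribosomal protein genes as the denominator, 41.2 with the microglial gate at 6%, 56.6 between the lowest and highest quintile of barcodes, 42.3 with mitochondrial UMIs under 2%, 43.3 with equal weight for each suffix, 32.1 after thinning to 500 UMIs and 67.4 for under 750 against 3000 UMIs or more. The median ratio of the 10 genes, 11.1, became 14.3 with the ribosomal denominator, 14.1 for the quintiles and 13.6 for the wider cutoffs. Leaving out 1 suffix at a time gave Ddit4 ratios of 33.7 to 44.5, median ratios of 10.7 to 11.3, 8 to 9 of the 10 genes called and 4 to 5 of the other targets. A filter at 20 CPM left 2 of these targets called.

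The recurring sequences changed the results most, under settings chosen after seeing the data. Without sequences under 2 or more suffixes the Ddit4 ratio was 19.8, the median ratio 2.53, and 0 of the 10 genes and 0 of the other targets were called. With suffix 2 left out as well the Ddit4 ratio was 0.497, but it rested on 1 low-RNA UMI and its interval of 0.0125 to 2.79 held 1. Without sequences under 3 or more suffixes the values were 56.7, 6.27, 1 and 1. With those sequences alone they were 1.76, 1.48, 5 and 0. Depth limits the comparison of sequences under 1 suffix, in which the low-RNA class held 728 barcodes, as few as 33 in a suffix.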
